A study of Homo sapiens with 4 samples.

Results

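Double-stranded RNA that a cell makes itself, for example from inverted repeats, from overlapping transcription or from its mitochondria, can be taken for the RNA of a virus. A group of enzymes and RNA-binding proteins keeps such RNA, and the related RNA:DNA hybrids and loose DNA, below the level that the sensors of innate immunity read. The 9 genes described here encode members of that group: ADAR, DHX9, DICER1, XRN1, STAU1, TREX1 and the RNase H2 subunits RNASEH2A, RNASEH2B and RNASEH2C. They were chosen by symbol for their known roles, with earlier results of these data known. All 9 of them were found by Ensembl identifier among the 27629 genes listed in at least one of the 4 deposited tables. The question was whether a lower level of any of them accompanied the high level of interferon-stimulated genes in cells depleted of hnRNPK.

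The cells were of the human bladder cancer line UM-UC-3, an established line. The 4 cultures received a control siRNA, a mix of 2 siRNAs named si-hnRNPK, 2 siRNAs named si-lncRNA-LBCS, or 2 siRNAs named si-PTBP1, each at 75 nM for 48 h, and total RNA was sequenced as paired reads of 100 bases. There was 1 library per condition and therefore no measure of the spread between cultures. Intervals of changes below are 95% exact (Clopper-Pearson) intervals. Those of ratios relative to the control ratio are 95% conditional exact intervals of the odds ratio of reads. All intervals cover counting error only, and no test between conditions was possible. Levels are given in CPM, the reads of a gene per 1000000 reads, and a change is the difference in log2(CPM + 1) between a knockdown and the control library. A gene was called changed at 2-fold, a change of at least 1 on that scale, if it reached 1 CPM in either library. The 3 comparisons share the same control library, so a deviation of that library enters each of them.

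The libraries held 54301152 to 70232674 reads on listed genes. HNRNPK, the targeted RNA-binding protein, measured 783.1 CPM in control and 187.8 CPM in si-hnRNPK cells, a change of -2.05 (-2.09 to -2.02). PTBP1 measured 280.0 CPM in control and 89.7 CPM in si-PTBP1 cells, a change of -1.63. The gene matched in full by both si-lncRNA-LBCS siRNAs, AL022068.1 (ENSG00000228412), measured 1.79 CPM in control and 1.47 CPM in the library with their label, a change of -0.18 whose interval (-0.42 to 0.07) included 0. That library is therefore called the LBCS-labelled library, by its label alone. Of 5 epithelial markers 2, the keratins KRT8 and KRT18, reached 1 CPM and stood at 63.0 CPM or more in every library, while KRT19 was at 0.0712 to 0.232 CPM, and EPCAM and CDH1 stayed below 1 CPM or were not listed. Of 10 urothelial markers 3 exceeded 1 CPM in every library, PPARG at 2.33 to 5.19 CPM, KRT7 at 1.42 to 3.03 CPM and FOXA1 at 1.67 to 2.53 CPM, while UPK1A, UPK1B, UPK2, KRT20, GATA3 and KRT5 stayed below 1 CPM or were not listed. Of 8 white blood cell markers 4 were listed, with a summed level of 0.427 to 2.95 CPM, and 1 of them, ITGAM, exceeded 1 CPM, in si-hnRNPK cells. PTPRC, CD3E and LYZ were among those not listed. In bulk RNA, fewer cells that express a gene and less of its RNA per cell cannot be told apart.

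The siRNAs are shown first because their seeds, bases 2 to 8 of the guide strand that pairs with the target, can also touch messenger RNAs other than HNRNPK. Both si-hnRNPK siRNAs are given as the sense strand, and capitals mark the bases that a seed pairs with.

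si-hnRNPK siRNA 1: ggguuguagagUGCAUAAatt

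si-hnRNPK siRNA 2: gccuccaucuaGAAGAGAutt

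Both matched HNRNPK and its pseudogenes HNRNPKP1, HNRNPKP2 and HNRNPKP4 in full and no other GENCODE transcript. Seed matches were counted in the 11703 genes tested that have an annotated 3′ UTR of a coding transcript. The seed match of siRNA 1, TGCATAA, occurred in the 3′ UTR of 11.1% of these, and among the 9 genes in DICER1 alone. The seed match of siRNA 2, GAAGAGA, occurred in 19.7% of them, and among the 9 genes in ADAR, DICER1 and XRN1. DICER1 was thus the 1 gene of the 9 that held both. The sites are shown on the transcript strand (all on the minus strand of GRCh38, GENCODE annotation), with the seed match in capitals.

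DICER1 site 1, chr14:95089840-95089868: ccacatagtctTGCATAAaaaagggttct

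DICER1 site 2, chr14:95086899-95086927: cattatctgcaGAAGAGAaactcatgtca

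ADAR site, chr1:154582542-154582570: ttctgttgtagGAAGAGAgcgaggcatcc

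XRN1 site, chr3:142309155-142309183: gtcaaaactgaGAAGAGAttaagatagga

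Beyond the seed these sites were not compared with the siRNAs. A seed match is a description of the letters, not a measured contact. DICER1 and XRN1, which hold such matches, were lower in si-hnRNPK cells, and ADAR, which holds one, was higher. Of the genes that hold neither, RNASEH2B (-0.81), DHX9 (-0.71), RNASEH2A (-0.68), STAU1 (-0.24) and RNASEH2C (-0.12) were lower too, and TREX1 was higher. Over the 11703 genes with a 3′ UTR the median change in si-hnRNPK cells was -0.10, and 58.3% were lower than in control. Of these, the 430 with both matches had a median change of -0.26, and 71.4% of them were lower. The 8535 genes with neither match had a median change of -0.07, and 55.9% of them were lower. The former also had far longer 3′ UTRs, with a median of 4752 bases against 1034 bases, and the part of either property in these values was not tested. The DICER1 3′ UTR counted 4270 bases. The seed match of the control siRNA occurred in XRN1 alone, that of the second si-PTBP1 siRNA in RNASEH2C alone, and those of the first si-PTBP1 siRNA and of both si-lncRNA-LBCS siRNAs in none of the 9 genes.

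In si-hnRNPK cells 7 of the 9 genes were lower than in control and 2, ADAR and TREX1, were higher, each by more than counting error. Most genes differed by that much: an exact binomial test on reads passed 10894 of the 13672 genes tested at a Benjamini-Hochberg q of 0.05. DICER1 fell past 2-fold, no gene rose past it, and the background over the 13672 genes tested was 3.93% lower and 3.55% higher by at least 2-fold. At 1.5-fold, 5 of the 9 genes were lower (DICER1, RNASEH2B, XRN1, DHX9 and RNASEH2A) against 15.8% of all genes tested, and 1, ADAR, was higher against 9.89% of all genes tested. Against the geometric mean of the 3 other libraries DHX9 stood at -0.54, short of 1.5-fold, and TREX1 at 0.77, past it. The median change of the 9 genes was -0.68, and that of all genes tested was -0.11, with 58.4% of them lower. The si-hnRNPK library held the lowest of the 4 levels for those 7 genes and the highest for ADAR and TREX1. For STAU1 (124.6 against 125.7 CPM in the LBCS-labelled library) and RNASEH2C (37.1 against 37.4 CPM in si-PTBP1) the margin was narrow. How many of all genes were lowest or highest in that library was not counted. Dividing each library by its median ratio to the others raised all changes in si-hnRNPK by 0.11. It took DICER1 to -0.93, short of 2-fold, RNASEH2C to -0.01, and kept the sign of all 9 changes. RNASEH2A went to -0.57, short of 1.5-fold, and TREX1 to 0.65, past it. STAU1 was then lower in the LBCS-labelled library (-0.22) than in si-hnRNPK (-0.13). RNASEH2C was then lower in si-PTBP1 (-0.23) than in si-hnRNPK (-0.01). Over all genes the same scaling moved the share of rises among the calls from 47.5% to 62.0%.

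**Figure D1:**
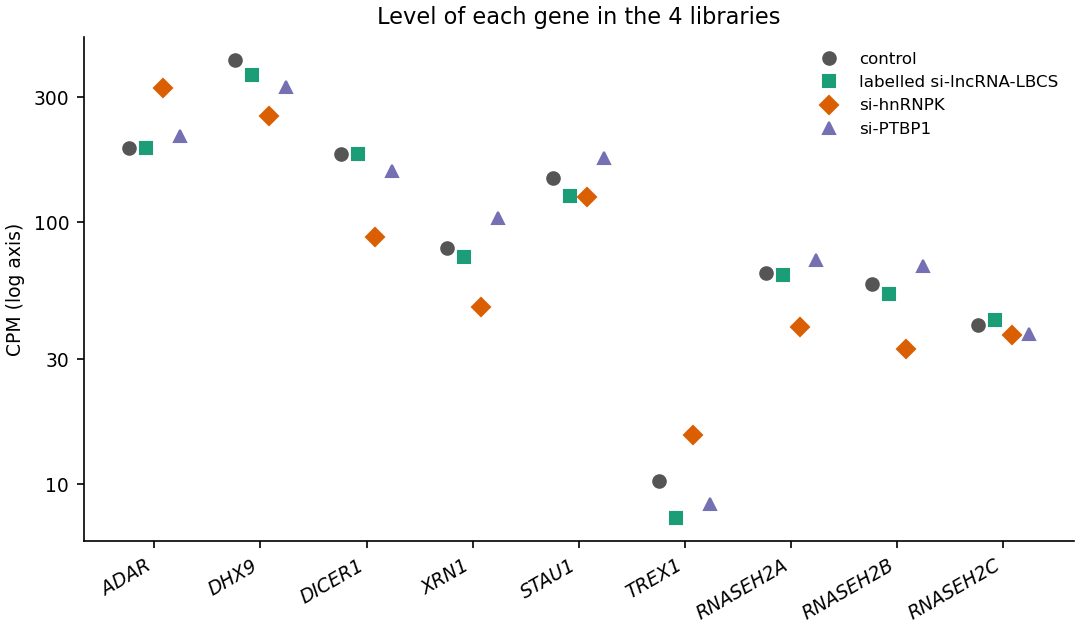
Level of each of the 9 genes in CPM (log axis), 1 point per library. The si-hnRNPK point (diamond) is the lowest of the 4 for 7 genes and the highest for ADAR, at 327.0 CPM, and for TREX1, at 15.4 CPM. For STAU1 and RNASEH2C the margin below the next library is narrow, and it did not hold when each library was divided by its median ratio to the others. The share of all genes lowest or highest in si-hnRNPK cells was not counted.

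ADAR converts adenosine to inosine in double-stranded RNA, which loosens the duplex, and mice and cells without it show interferon signalling through the sensor MDA5. It measured 192.6 CPM in control, 192.2 CPM in the LBCS-labelled library, 214.3 CPM in si-PTBP1 and 327.0 CPM in si-hnRNPK cells. The first 3 libraries lay within 1.11-fold of each other, and the si-hnRNPK library lay above them all. The change in si-hnRNPK was 0.76 (0.73 to 0.79), a ratio of 1.70, and 6.34% of genes tested were raised by more. One of the ADAR protein forms, p150, is known to be made from an interferon-inducible promoter, but gene-level counts do not separate the forms. ADARB1, a second editing enzyme, measured 23.4 CPM in control and 25.0 CPM in si-hnRNPK cells, a change of 0.09 whose interval (-0.01 to 0.19) included 0. The ratio of ADAR to ADARB1 reads within a library, which no scaling between libraries can alter, was 8.23 in control and 13.1 in si-hnRNPK cells, 1.59 times as large (1.47 to 1.72). The ratio was 7.11 in the LBCS-labelled library and 8.27 in si-PTBP1 cells. ADAR messenger RNA was thus not lower in the library with the high interferon-stimulated genes.

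DHX9 is a helicase that unwinds double-stranded RNA, including the duplexes formed by inverted Alu repeats. It measured 417.9 CPM in control, 366.1 CPM in the LBCS-labelled library, 329.8 CPM in si-PTBP1 and 254.6 CPM in si-hnRNPK cells. All 3 knockdown libraries lay below control, and si-hnRNPK lay lowest. The changes were -0.19, -0.34 and -0.71 (-0.74 to -0.68) in the same order, and 10.8% of genes tested were lowered by more than DHX9 in si-hnRNPK cells. Other double-stranded RNA-binding proteins and helicases were lower in 11 of 13 cases in si-hnRNPK cells, beside 58.4% of all genes tested. Their median was -0.19, with 0 of 13 past 2-fold. In the LBCS-labelled library 9 of 13 were lower, beside 51.8% of all genes, and in si-PTBP1 cells 7 of 13, beside 36.5%. The changes largest in size in si-hnRNPK cells were those of ZFR, a zinc finger protein that binds double-stranded RNA, at -0.59, and of the helicase DDX3X, also at -0.59. ZFR was at -0.55 in the LBCS-labelled library and at -0.04 in si-PTBP1 cells.

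DICER1 cuts double-stranded RNA and hairpins, and makes mature microRNAs from their precursors. It measured 181.7 CPM in control, 181.6 CPM in the LBCS-labelled library, 156.8 CPM in si-PTBP1 and 87.7 CPM in si-hnRNPK cells. The first pair was equal within counting error, si-PTBP1 was slightly lower, and si-hnRNPK held 48.3% of the control level. The change was -1.04 in si-hnRNPK cells, with an interval (-1.09 to -0.99) that spans the 2-fold line, and 3.36% of genes tested were lowered by more. The 10 other genes of microRNA processing were all lower in si-hnRNPK cells, beside 58.4% of all genes tested, with a median of -0.38 and 0 of 10 past 2-fold. In the LBCS-labelled library 8 of 10 were lower, beside 51.8% of all genes, and in si-PTBP1 cells 4 of 10, beside 36.5%. In si-hnRNPK cells the largest changes were those of TNRC6A, a scaffold of the silencing complex, at -0.85, and its relative TNRC6B, at -0.65. DROSHA, the nuclear enzyme that acts before DICER1, was at -0.53. The ratio of DICER1 to DROSHA reads within a library was 4.94 in control, 3.49 in si-hnRNPK, 3.48 in si-PTBP1 and 6.59 in the LBCS-labelled library. The lower ratio was thus not particular to si-hnRNPK cells, but DROSHA moved in different directions. It measured 36.8 CPM in control, 25.1 CPM in si-hnRNPK, 45.1 CPM in si-PTBP1 and 27.6 CPM in the LBCS-labelled library.

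The 5 genes nearest to DICER1 in their 3 changes, of 8766 genes at 10 CPM or more in control, were BUB1B, FBXO5, KIF22, E2F7 and H2AC21, at Euclidean distances of 0.02 to 0.06 on the log2 scale. Those nearest to ADAR were NRG1, NABP1, LIMA1, FSTL1 and DPP7, at 0.06 to 0.09. These distances rest on 4 libraries and describe likeness in these libraries only.

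**Figure D2:**
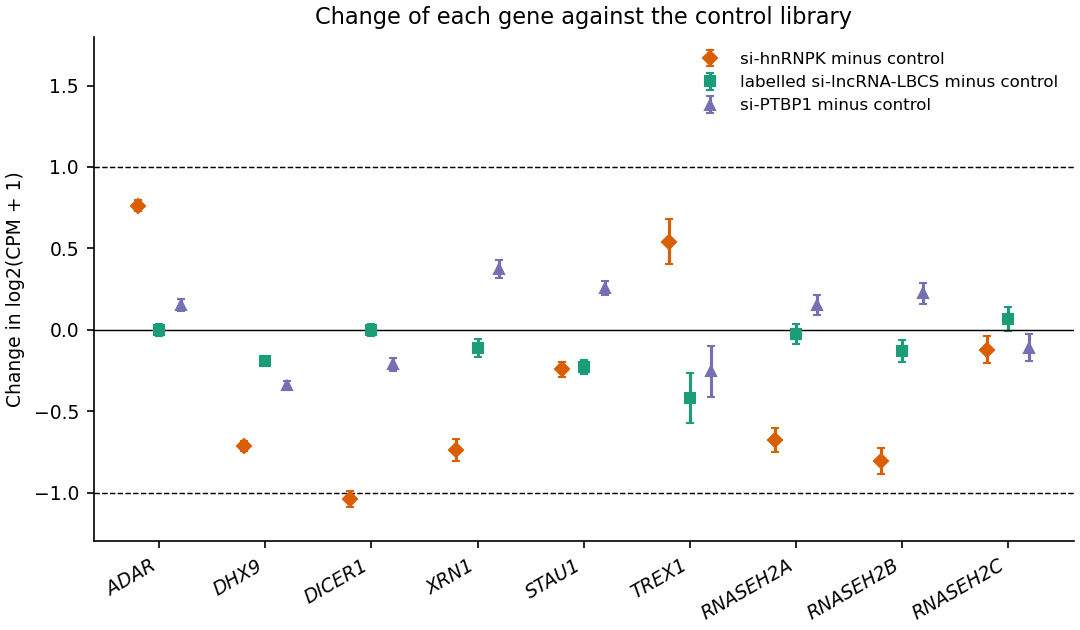
Change of each of the 9 genes in log2(CPM + 1) for each knockdown library minus control, with 95% counting intervals as bars and dashed lines at 2-fold. DICER1 in si-hnRNPK cells, at -1.04, is the 1 point past a dashed line, and ADAR and TREX1 lie above 0 at 0.76 and 0.54.

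XRN1 degrades uncapped RNA from the 5′ end in the cytoplasm. It measured 79.8 CPM in control, 73.9 CPM in the LBCS-labelled library, 103.7 CPM in si-PTBP1 and 47.5 CPM in si-hnRNPK cells. The si-PTBP1 and si-hnRNPK libraries lay on opposite sides of control. The change was -0.74 (-0.81 to -0.67) in si-hnRNPK and 0.37 (0.32 to 0.43) in si-PTBP1 cells. XRN2, which does the same in the nucleus, was at -0.32 in si-hnRNPK cells, and the ratio of XRN1 to XRN2 reads was 0.147 in control, 0.109 in si-hnRNPK and 0.268 in si-PTBP1 cells. Of 10 other genes of cap removal and 5′-3′ decay, 8 were lower in si-hnRNPK cells, beside 58.4% of all genes tested. Their median was -0.44, with 0 of 10 past 2-fold. In the LBCS-labelled library 8 of 10 were lower as well, beside 51.8% of all genes, and in si-PTBP1 cells 5 of 10, beside 36.5%. In si-hnRNPK cells the largest changes at 10 CPM or more were those of DXO, which removes faulty caps, at -0.72, and of PATL1, which links decapping factors, at -0.64.

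STAU1 binds double-stranded stems in messenger RNA and can direct them to decay with UPF1. It measured 147.6 CPM in control, 125.7 CPM in the LBCS-labelled library, 176.4 CPM in si-PTBP1 and 124.6 CPM in si-hnRNPK cells. The si-hnRNPK level was close to that of the LBCS-labelled library, and the changes were -0.24 (-0.29 to -0.20) and -0.23 (-0.27 to -0.19). The partner genes of nonsense-mediated decay were lower in 8 of 9 cases in si-hnRNPK cells, beside 58.4% of all genes tested. Their median was -0.49, with 0 of 9 past 2-fold, and UPF3A was at -0.65. In the LBCS-labelled library 7 of 9 were lower, beside 51.8% of all genes, and in si-PTBP1 cells 4 of 9, beside 36.5%.

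TREX1 degrades DNA in the cytoplasm and is mutated in interferon-driven disease. It rested on the fewest reads of the 9 genes and measured 10.2 CPM in control, 7.40 CPM in the LBCS-labelled library, 8.42 CPM in si-PTBP1 and 15.4 CPM in si-hnRNPK cells, from 472 to 835 reads. It was lower than control in 2 knockdown libraries and higher in si-hnRNPK, with a change of 0.54 (0.40 to 0.68). All of its exon bases also lie in exons of ATRIP, a gene on the same strand that is needed for the response to DNA damage. How reads were divided between the pair is not given in the sources used here, so the level of TREX1 is uncertain. ATRIP moved the other way, from 12.8 CPM in control to 7.55 CPM in si-hnRNPK cells, a change of -0.69 (-0.84 to -0.53). The ratio of TREX1 to ATRIP reads was 0.803 in control and 2.04 in si-hnRNPK cells, 2.53 times as large (2.16 to 2.98).

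The 3 RNase H2 subunits form 1 enzyme that removes RNA from RNA:DNA hybrids and single ribonucleotides from DNA, and inherited mutations in any of them are known to cause interferon-driven disease. RNASEH2A, the catalytic subunit, measured 64.2 CPM in control, 63.1 CPM in the LBCS-labelled library, 71.5 CPM in si-PTBP1 and 39.8 CPM in si-hnRNPK cells. RNASEH2B measured 58.2, 53.1, 68.2 and 32.9 CPM in the same order. RNASEH2C measured 40.4, 42.4, 37.4 and 37.1 CPM. The first pair was lowest in si-hnRNPK cells by a clear margin, while RNASEH2C in si-hnRNPK and si-PTBP1 was nearly equal. The changes in si-hnRNPK were -0.68 (-0.75 to -0.60) for RNASEH2A, -0.81 (-0.89 to -0.73) for RNASEH2B and -0.12 (-0.21 to -0.04) for RNASEH2C.

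The subunits thus did not change in step. RNASEH2A to RNASEH2C reads stood at 1.59 in control and 1.07 in si-hnRNPK cells, 0.676 times the control ratio (0.624 to 0.732). RNASEH2B to RNASEH2C reads stood at 1.44 in control and 0.887 in si-hnRNPK cells, 0.616 times the control ratio (0.567 to 0.669). In si-PTBP1 cells the same ratios were 1.20 and 1.27 times those of control. RNASEH2A to RNASEH2B reads moved far less, to 1.10 times the control ratio in si-hnRNPK cells (1.02 to 1.19). RNASEH2C shares 28.2% of its exon bases with KAT5 on the other strand, and RNASEH2A shares 30.8% with THSD8 on the same strand, which was not listed. Whether counting used strand is not given in the sources used here, and KAT5 was at -0.13 (-0.23 to -0.03), close to RNASEH2C. Of 6 other genes of hybrid and DNA clearance tested, 4 were lower and 2 higher in si-hnRNPK cells, 0 past 2-fold. Of all genes tested there, 58.4% were lower. The largest were DNASE2, the lysosomal DNase, at 0.81 and SAMHD1, which degrades deoxynucleotides, at 0.71.

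**Figure D3:**
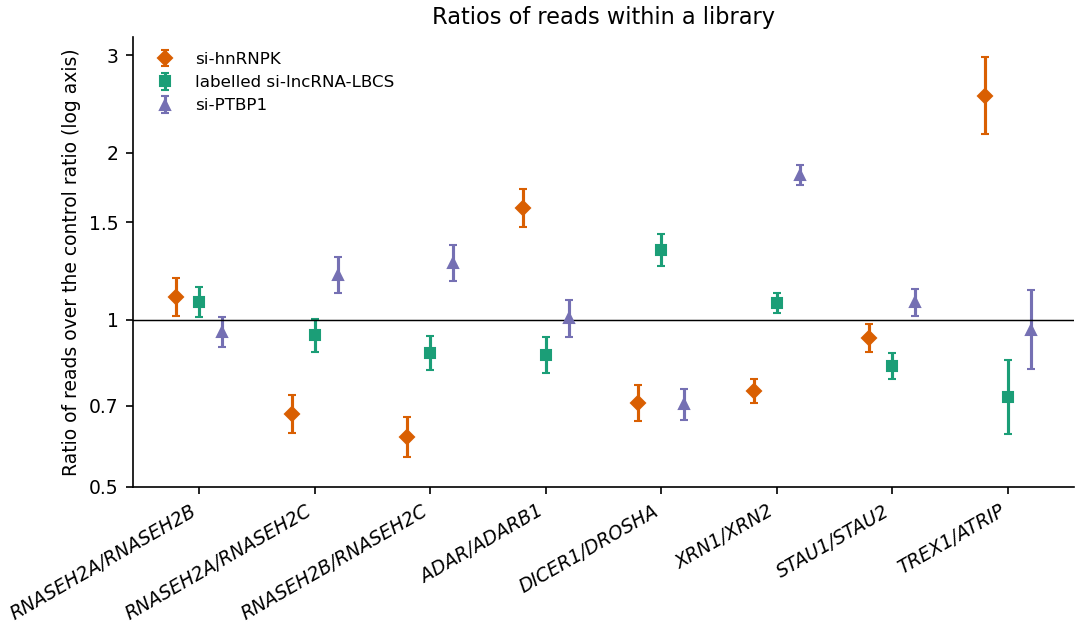
Ratios of the reads of paired genes within each knockdown library divided by the same ratio in control (log axis), with 95% counting intervals as bars. In si-hnRNPK cells (diamonds) RNASEH2A and RNASEH2B stand at 0.676 and 0.616 against RNASEH2C, ADAR at 1.59 against ADARB1 and TREX1 at 2.53 against ATRIP.

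Levels of different genes can be compared only per length. Per kilobase of the longest coding transcript, in control, DHX9 led at 98.6 CPM per kb, followed by STAU1 at 40.1, ADAR at 28.7, RNASEH2A at 23.3, DICER1 at 17.6, RNASEH2C at 14.5, RNASEH2B at 11.9, XRN1 at 7.87 and TREX1 at 6.97 CPM per kb. The ranges over the 4 libraries overlapped between all neighbours in this order except DHX9 and STAU1, and ADAR and RNASEH2A. In si-hnRNPK cells ADAR, at 48.8 CPM per kb, passed STAU1, at 33.8 CPM per kb, and TREX1 passed DICER1, RNASEH2B and XRN1.

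In the LBCS-labelled library 0 of the 9 genes passed 2-fold or 1.5-fold. The background over its 13492 genes tested was 1.01% lower and 0.378% higher at 2-fold, and 5.74% lower and 4.14% higher at 1.5-fold. There 8 of the 9 genes were lower than in control, beside 51.8% of all genes tested, 5 of them by more than counting error. The changes of 4 genes (ADAR, DICER1, RNASEH2A and RNASEH2C) were within it, and the change largest in size was that of TREX1 at -0.42. Of all 13492 genes tested there, 9513 passed an exact binomial test on reads at q of 0.05. In si-PTBP1 cells 0 of the 9 genes passed either threshold as well. The background over 13855 genes tested was 0.613% lower and 2.92% higher at 2-fold, and 3.12% lower and 12.1% higher at 1.5-fold. There 4 genes were lower and 5 higher by more than counting error, between -0.34 for DHX9 and 0.37 for XRN1. Of all genes tested in that comparison, 36.5% were lower. Of all 13855 genes tested there, 10222 passed the same binomial test. The median of the 9 genes was -0.11 in the LBCS-labelled library and 0.15 in si-PTBP1 cells, beside -0.01 and 0.12 for all genes tested. Median-ratio scaling took the si-PTBP1 median to 0.03, and the share of rises among all its calls from 82.6% to 65.9%.

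**Figure D4:**
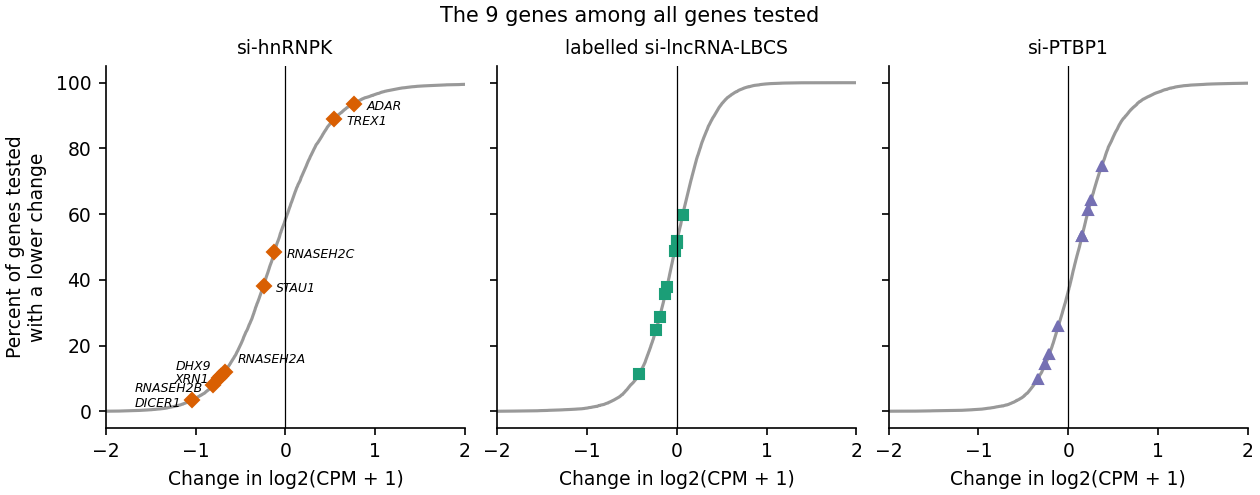
The grey curve gives, for each change in log2(CPM + 1) against control, the percentage of all genes tested with a lower change, and the points are the 9 genes. In si-hnRNPK cells they spread from DICER1, with 3.36% of genes lower, to ADAR, with 93.7% of genes lower, while RNASEH2C and STAU1 sit in the middle of the curve.

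The interferon-stimulated genes were used as context, from a list also chosen with earlier results of these data known. In si-hnRNPK cells 20 of 20 were higher and 18 of 20 rose past 2-fold, with a median change of 2.81. Of these, 6 passed the filter on low values only through their level in si-hnRNPK cells, and the 14 tested in every comparison had a median of 2.53, with 13 of 14 past 2-fold. IFIT1, which binds foreign RNA ends, went from 19.6 to 466.3 CPM, IFI6, an antiviral membrane protein, changed by 4.45 and CMPK2, a mitochondrial nucleotide kinase, by 4.17. Of the sensors of double-stranded RNA and their partners, 10 of 10 tested were higher and 7 rose past 2-fold, with a median of 1.65 (2.10 over the 6 tested in every comparison). OAS1 and OAS2, which start RNase L cleavage, changed by 4.11 and 3.52, and RIGI, the sensor of RNA ends, went from 67.1 to 677.4 CPM. Of 5 genes of cytosolic DNA sensing 2 were higher and 3 lower, and IFI16, the 1 past 2-fold, changed by 1.60. In the LBCS-labelled library and in si-PTBP1 cells the median over the same 14 interferon-stimulated genes was -0.03 and -0.17. The rise of these genes was thus seen in the library in which DICER1 fell and ADAR was highest. With 1 library per condition, whether any of the 9 genes has a part in that rise cannot be told apart from every other difference of that library.

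Most of the remaining genes of RNA decay and silencing were lower in si-hnRNPK cells as well. Without the sensors, 68 of 85 genes tested on the pathway lists (80%) were lower in si-hnRNPK cells, beside 58.4% of all genes tested, with a median of -0.30. The same lists were lower for 74.1% of 85 genes in the LBCS-labelled library, beside 51.8% of all genes, and for 56.5% of 85 in si-PTBP1 cells, beside 36.5% of all genes, so an excess of lower genes was present in all 3 comparisons, which share the control library. In si-hnRNPK cells 3 fell past 2-fold and 1, IFI16, rose, and none of the 3 falls passed 2-fold under median-ratio scaling or against the mean of the other libraries. EXOSC8, a subunit of the RNA exosome, fell by 1.08, and 13 of 17 genes of the exosome and its Ski partners were lower, with a median of -0.24. DNMT1, the maintenance DNA methyltransferase, fell by 1.03 and the helicase HELLS by 1.01, and 8 of 9 genes of repeat silencing were lower, with a median of -0.34. PNPT1, which degrades double-stranded RNA in mitochondria, went from 80.6 to 134.3 CPM, a change of 0.73, and REXO2, a mitochondrial oligonuclease, was at -0.41, with 3 of 5 mitochondrial decay genes lower. All 20 DNA replication genes were lower too, with a median of -0.79 and 5 of 20 past 2-fold, led by MCM4 at -1.67, CDC45 at -1.54 and LIG1 at -1.34. Their summed level was 1771 CPM in si-hnRNPK cells and 2723 to 3293 CPM in the other libraries. The part of that difference in the values of the 9 genes was not tested.

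**Figure D5:**
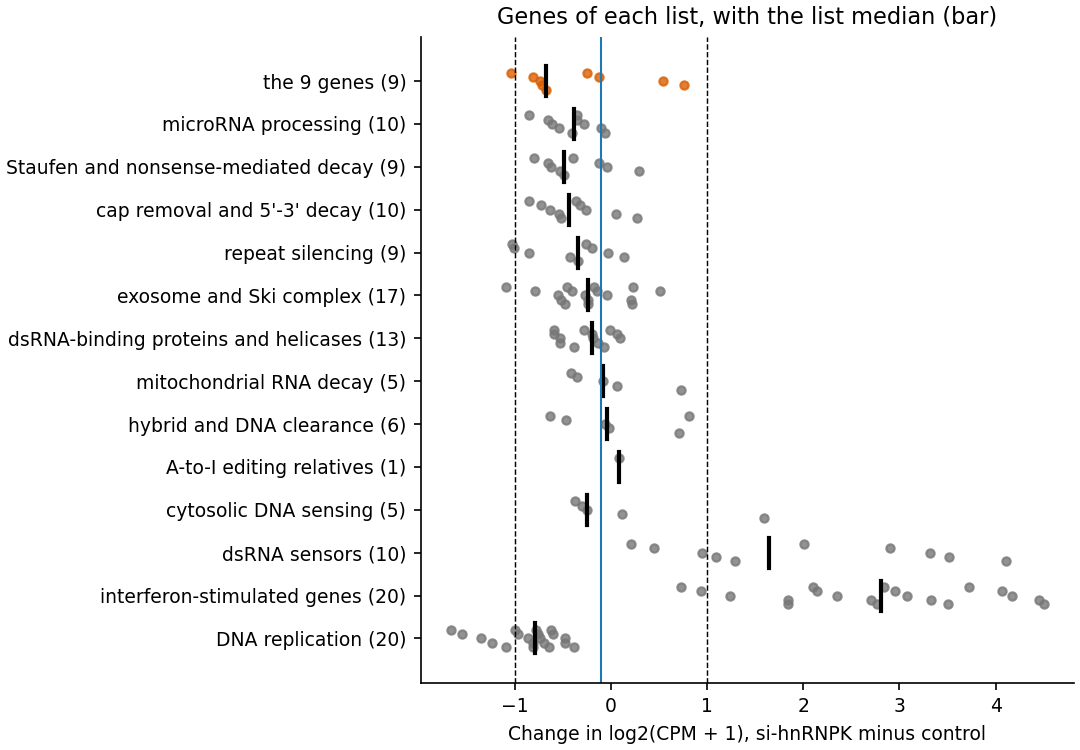
Change in log2(CPM + 1), si-hnRNPK minus control, of every gene tested on each list, with the list median as a black bar, the median of all genes as a blue line at -0.11 and dashed lines at 2-fold. The 9 genes (top row) have a median of -0.68, the sensors one of 1.65 and the interferon-stimulated genes one of 2.81.

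Promoters were searched on both strands for the core of the interferon-stimulated response element (GAAA, then NN, then GAAA) and for the E2F sites TTTCCCGC and TTTGGCGC, whose matches can share bases with it. RefSeq windows of 300 bases (GRCh38.p14) were at hand for all 9 genes, 17 windows in total. The response element occurred in 0 of the 17 windows and in 3.57% of all 35116 windows, and the E2F sites in 0 of the 17 and in 2.27% of all. By gene, the response element was present for 11 of 15 interferon-stimulated genes with a window, for 4 of 7 sensors and for 0 of 17 DNA replication genes. The E2F sites were present for 10 of those 17 replication genes, for 2 of the 7 sensors and for 2 of the 15 interferon-stimulated genes. Over all 27305 genes the response element was present for 4.38% and the E2F sites for 2.75%. The absence of these letters near the starts of the 9 genes says nothing of elements elsewhere or with other spacing.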

How the data were processed

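The 4 deposited tables list Ensembl genes with CPM values (reads per 1000000) that the authors derived from their reads. The submitters' processing notes name build hg19, and the aligner, counter and annotation are not given in the sources used here. In each library 197 to 393 genes carry a placeholder (0.5 read, or close to 0 in control) and were taken as having no reads. All other CPM values are whole multiples of 1 read (100% within 0.1 read), so reads were recovered from the steps and served only for counting intervals. Intervals cover counting error only and no spread between cultures. Reads without molecular identifiers are not independent molecules, so the intervals can be too narrow even for counting error. Changes were differences of log2(CPM + 1) in genes at 1 CPM or more in either library. Symbols, positions, 3′ UTRs (the longest coding one) and exon overlaps came from GENCODE v29 on GRCh38. The steps were tested on simulated data.

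Named genes were all 9 genes, the targets, per list those at 10 CPM or more past 2-fold in si-hnRNPK (at most 3 each way, otherwise the 2 largest), and the 5 nearest patterns to ADAR and DICER1. Genes paired in ratios, and all exceptions, were chosen after their values were seen. A gene that this rule names is not reported here. The 9 genes and the lists were chosen with earlier results of these data known. Alternatives were another pseudocount, scaling, reference, filter, threshold and a call that also required an exact binomial test. scipy, numpy, pandas and matplotlib were used.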

Additional observations from a re-analysis of the deposited data

How the results depend on the processing

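With 1 library per condition no replicate could be left out. No paired analysis was possible because each group holds 1 sample. The count of the 9 genes past 2-fold in si-hnRNPK, 1 as reported, was 0 under median-of-ratios scaling, 0 against the geometric mean of the 3 other libraries, 0 against that of control and si-PTBP1 (chosen after seeing the data) and 6 at 1.5-fold. DICER1 stood between -1.05 and -0.93 over these references, scalings and pseudocounts, ADAR between 0.68 and 0.87, and all 9 signs in si-hnRNPK held. Of the 18 other signs, 2 turned under scaling, both in the LBCS-labelled library (siRNAs against lncRNA-LBCS), and 7 against the mean of the other libraries. The pathway count went from 11 to 29 in si-hnRNPK at 1.5-fold, and its 3 falls (EXOSC8, DNMT1 and HELLS) went to 0 under scaling, where all 9 calls were rises. The exosome count (1) and the repeat silencing count (2) also went to 0 against both means of other libraries. In the LBCS-labelled library it went from 1 to 8 at 1.5-fold and to 6 against the mean of the other libraries, where the count of interferon-stimulated genes went from 4 to 8. In si-PTBP1 the pathway count went from 2 to 10 at 1.5-fold and to 7 against that mean, and the count of interferon-stimulated genes from 3 to 5 under scaling, to 6 at 1.5-fold and to 11 against that mean. The mean of the other libraries holds si-hnRNPK by construction. The remaining causes were not tested. The other 53 of 66 counts stayed within 1.5 times. The exact binomial test on reads passed 10894 of 13672 genes in si-hnRNPK at q of 0.05, since depth leaves little counting error, and compares libraries, not conditions.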

Other observations

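Genes outside the rule for names were picked here after their values were seen. DCP2, the catalytic decapping enzyme that makes substrates for XRN1, measured 60.9 CPM in control, 105.0 CPM in the LBCS-labelled library, 177.8 CPM in si-PTBP1 and 50.9 CPM in si-hnRNPK cells. It rose by 1.53 in si-PTBP1 cells, the library in which XRN1 was also highest. AGO4, an Argonaute protein that carries small RNAs made by DICER1, measured 18.5, 29.3 and 41.7 CPM in the first 3 of these, rose by 1.13 in si-PTBP1 cells and was at -0.28 in si-hnRNPK cells. These were the 2 pathway genes past 2-fold in that library.

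The control library did not hold the lowest level of every interferon-stimulated gene. IFIT2 measured 24.0 CPM in control, 6.15 CPM in the LBCS-labelled library and 6.71 CPM in si-PTBP1 cells, IFIT3 measured 23.4, 7.65 and 7.42 CPM, and OASL measured 9.89, 2.05 and 1.21 CPM. STING1, the adaptor of cytosolic DNA sensing, measured 7.41 CPM in control, 2.22 CPM in the LBCS-labelled library, 3.85 CPM in si-PTBP1 and 5.82 CPM in si-hnRNPK cells. TREX1 had the same order among the first 3 libraries, highest in control, and 1 library per condition gives no spread to set against these differences.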
